A study of Caenorhabditis elegans with 48 samples.

Results

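The hedgehog-related genes of *Caenorhabditis elegans* were followed through prolonged starvation of L1 larvae, with and without degradation of RNA polymerase II. All protein-coding genes that the WBcel235 annotation names *wrt*, *grd* or *grl* with a number were taken, together with *hog-1* and *qua-1*, and matched by WBGene identifier. This gave 59 of 19932 protein-coding genes, with 10 *wrt* (warthog), 16 *grd* (groundhog) and 31 *grl* (ground-like) genes. Of these, 36 had more than 10 counts in at least 4 of the 48 libraries and were tested, 7 *wrt*, 8 *grd*, 19 *grl*, *hog-1* and *qua-1*. The members are spread over all chromosomes, with 28 on chromosome V, 12 on IV, 10 on X, 4 on III, 3 on II and 2 on I. In 26 of the 59, exons overlap those of another annotated gene.

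The study tested whether transcription in the soma or the germline is needed during L1 arrest. Whole larvae of 4 strains were collected in 12 groups of 4 libraries, at 132 h of arrest after 96 h with 100 μM auxin, at 132 h with ethanol, the solvent, and at 36 h before either was added. In the soma degron strain, *Peft-3::TIR1; ama-1::AID*, the *eft-3* promoter drives TIR1 in the soma (*ieSi57*, with mRuby), and AMA-1, the largest polymerase subunit, carries the auxin-inducible degron (AID) through the allele *ama-1(syb1513)*. In the germline degron strain, *Pgld-1::TIR1; ama-1::AID*, the *gld-1* promoter drives TIR1 in the germline (*ieSi64*), with the same *ama-1* allele. *Peft-3::TIR1* and *Pgld-1::TIR1* carry the same TIR1 transgenes without the degron. The soma degron strain grows slower, and its embryos came from more plates.

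Worms lack a canonical Hedgehog ligand and Smoothened, the transducer of Hedgehog signals in flies and vertebrates, but have many secreted proteins related to Hedgehog. Some members end in a Hog domain, the self-cleaving part of Hedgehog proteins, among them *wrt-1*, *wrt-6*, *grd-1*, *hog-1* and *qua-1*. Others carry only the amino-terminal Wart, Ground or Ground-like domain. Many are made in the epidermis, in glia and in other epithelia that form cuticle, and many rise and fall with each molt. Proteins related to Patched, the Hedgehog receptor, are numerous in worms too, and several act in molting.

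Degradation acts on AMA-1 protein, so *ama-1* mRNA does not check it. Libraries held 5755041 to 18052333 counts on genes, and spike-ins made up 1.13% to 8.33% of counts. In the soma degron strain, spike-ins made up 2.58% to 8.33% with auxin and 1.50% to 2.44% with ethanol, without overlap. The covariate W1, the first factor of unwanted variation over the spike-ins, ranged from 0.10 to 0.34 in those auxin libraries and from −0.17 to −0.02 in the ethanol libraries. W1 and auxin are therefore partly confounded in this strain. Over all tested genes, the median log2 fold change with auxin there was 0.11 in the fit with W1, and −1.25 when libraries were scaled to spike-in counts. Log2 fold changes below come from the fit with W1 unless spike-ins are named. In the ethanol group of *Pgld-1::TIR1*, replicate 4 stood apart with 6.41% spike-ins. Each biological replicate came from its own plates, so p-values measure the spread between such cultures. Reads carry no molecular identifiers, so intervals and floors below cover counting error only.

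The members were expressed at a low level. Their summed counts were 373 to 1800 per library. Between 23 and 45 of the 59 had a count in any library, and *grd-4* had none in the 48. The molting gene *qua-1*, *wrt-5*, which is needed in embryogenesis, and *grd-10* held 43.1% of all member counts. With *grl-4* and *grd-3*, they held 58.3%. No untested member exceeded 38 counts in a library. Counts of weak members often sat in 1 library. In 35 of 708 pairs of member and group, 1 library had at least 10 counts and the other 3 had at most 2 each, for example *grd-2* with 35 counts in 1 auxin library of *Pgld-1::TIR1* and 0 in the other 3. CPM below are relative to the total of counts on genes, without spike-ins.

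**Figure D1:**
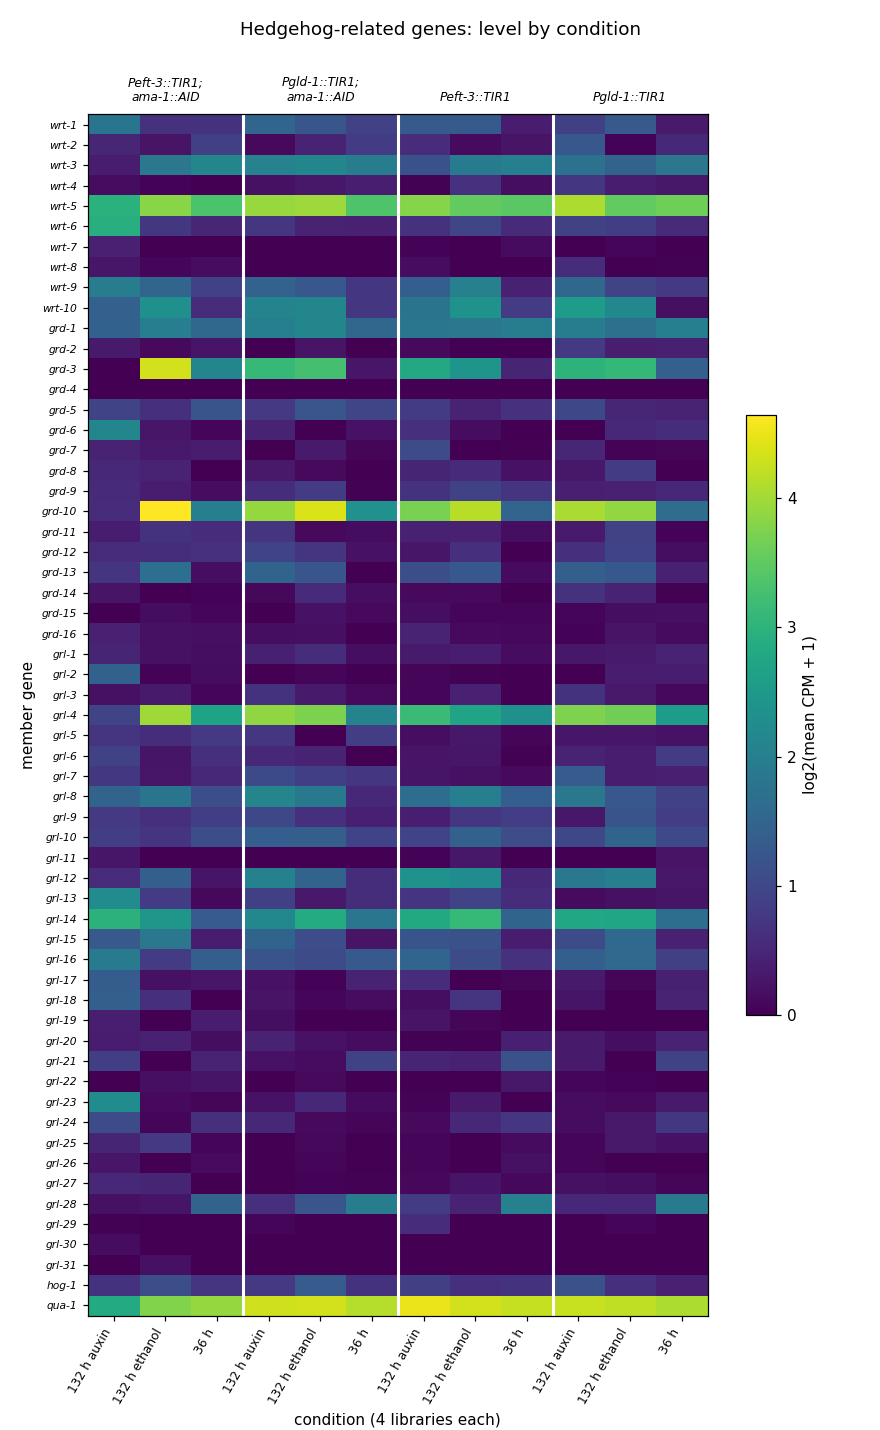
Mean level of each of the 59 members (rows, log2 of mean CPM + 1) in the 12 groups (columns, 4 libraries each; white lines separate strains). *grd-3*, *grd-10* and *grl-4* are bright in every strain at 132 h except with auxin in the soma degron strain (left), and most other rows stay dark throughout.

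Summed over all members, the CPM was higher at 132 h with ethanol than at 36 h in every strain, without overlap between libraries. Per spike-in count, *Pgld-1::TIR1* was the exception, through replicate 4 with ethanol alone, the library with 6.41% spike-ins. It had 12.3 per 10000 spike-in counts, against 16.9 to 34.8 at 36 h. The other ethanol libraries of this strain lay above all those at 36 h. In the soma degron strain, the sum was 73.7 ± 7.85 CPM with auxin, 121 ± 7.96 CPM with ethanol and 60.3 ± 8.74 CPM at 36 h (SD, n = 4 each). Per 10000 spike-in counts it was 16.6 ± 6.13 with auxin, 64.4 ± 14.5 with ethanol and 23.3 ± 4.17 at 36 h, so the order of auxin and 36 h turned round. In the other 3 strains the means were 99.1 to 112 CPM with auxin, 98.8 to 115 CPM with ethanol and 57.2 to 61.2 CPM at 36 h. Without *grd-3*, *grd-10*, *grl-4*, *qua-1* and *wrt-5*, the order in the soma degron strain turned round. The remaining 54 members summed to 48.9 to 67.3 CPM with auxin and to 32.5 to 41.5 CPM with ethanol, without overlap. Per 10000 spike-in counts, these 54 members summed to 13.2 ± 4.53 with auxin and 20.1 ± 5.12 with ethanol, so the higher share with auxin depends on the scale. These 5 genes were chosen after their values were seen.

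Per kilobase of exon, *grd-10* led the ethanol groups of all 4 strains, at 21.9 to 37.9 FPKM. With auxin in the soma degron strain, *wrt-5* led with 8.47 FPKM, followed by *grl-14* with 4.53 FPKM and *grl-13* with 4.24 FPKM. At 36 h, *wrt-5* led in all 4 strains, at 11.3 to 14.0 FPKM.

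Auxin in the soma degron strain was then compared with ethanol at 132 h. Of the 36 tested members, 5 fell and 1 rose. The members that fell were *grd-3*, *grd-10*, *grl-4*, *wrt-3* and *qua-1*, and *grl-23*, which was tested only through its auxin counts in this strain, rose. Without W1, 6 fell and 4 rose, with *grl-2* and *grl-23*, both tested only through their auxin counts, among the 4. Without replicate 3 of every group, 3 fell, and without replicate 2, 4 fell and 0 rose. Shares of all tested genes without W1 or without a replicate are not given here, so nothing is read from these counts. With W1 and all libraries, 13.9% of the members were lower, against 16.1% of all tested genes. For members higher it was 2.78%, against 13.3% of all tested genes. The share of members lower was thus near that of all genes. The median log2 fold change of the tested members was 0.45, and it was the same (0.45) with the 2 members at 0 in 1 group, *grd-3* and *grl-21*, set at the bound of 3 counts per library. In bulk samples, fewer cells of a type and less RNA per cell cannot be told apart.

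The counts show how complete the largest fall was. *grd-3* (WBGene00001692, chromosome IV 3439655 to 3440453, + strand) had 0 counts in all 4 auxin libraries of the soma degron strain, against 213, 158, 299 and 200 counts in the ethanol libraries. It was at least 74.4-fold lower on the CPM scale, and at least 173-fold lower per spike-in count, with the auxin libraries set at a floor of 3 counts per library. In *Peft-3::TIR1*, *grd-3* had 48, 78, 47 and 76 counts with auxin, against 32, 78, 43 and 30 with ethanol. The fitted log2 fold change in the soma degron strain, −10.45 (SE 0.97), depends on the prior count and is no bound (adjusted p = 1.45e-11, edgeR's quasi-likelihood test).

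*grd-10* (WBGene00001699, chromosome IV 3441055 to 3441841, + strand) lies next to *grd-3*. It had 0.66, 1.00, 0.36 and 0 CPM with auxin in the soma degron strain, against 23.2, 22.2, 27.9 and 22.6 CPM with ethanol. The log2 fold change was −5.21 (SE 0.65, adjusted p = 1.53e-08, edgeR's quasi-likelihood test). *grd-13* precedes both on the same strand, and the 3 genes span 3438312 to 3441841. Its counts with auxin were 20, 9, 0 and 0, against 25, 19, 46 and 16 with ethanol, so the groups overlapped (log2 fold change −1.32, adjusted p = 0.532, edgeR). Scaled to spike-ins, *grd-13* was called lower (−2.86, adjusted p = 0.0415, edgeR). The authors' mapping kept reads that matched 2 places and placed each at 1 of them, so close copies could exchange reads, which was not tested.

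*grl-4* (WBGene00001713, chromosome IV 7309838 to 7310760, − strand) had 0.47, 0.54, 2.61 and 0.16 CPM with auxin in the soma degron strain, against 16.9, 14.8, 17.8 and 9.83 CPM with ethanol. Its auxin libraries lay below all its ethanol libraries, and replicate 3 was the highest of them. The log2 fold change was −3.87 (SE 0.62, adjusted p = 2.64e-06, edgeR's quasi-likelihood test). The call was lost when only the libraries compared were fitted with W1 (adjusted p = 0.102).

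*qua-1* (WBGene00004264, chromosome II 8198803 to 8204004, + strand), which is needed for molting, changed less. It had 5.68, 5.63, 6.21 and 7.0 CPM with auxin in the soma degron strain, against 11.3, 12.3, 14.9 and 11.6 CPM with ethanol. The libraries were close within each group, and the groups did not overlap. The log2 fold change was −1.08 (SE 0.28, adjusted p = 0.00301, edgeR). The call was lost without replicate 3 (adjusted p = 0.126) and with only the libraries compared and W1 (adjusted p = 0.426).

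*hog-1* (WBGene00001984, chromosome X 5851953 to 5854263, − strand), the other member outside the *wrt*, *grd* and *grl* families, was weak and variable. It had 0.095, 1.46, 0.81 and 0 CPM with auxin in the soma degron strain, against 1.43, 0.43, 1.95 and 0.86 CPM with ethanol. The groups overlapped (log2 fold change −0.91, SE 1.44, adjusted p = 0.681, edgeR). Exons of *atat-2* and W06B11.10 on the other strand overlap 3.19% of its own, and the kit does not mark strand.

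*wrt-3* had 9, 0, 0 and 4 counts with auxin in the soma degron strain, against 27, 41, 38 and 10 with ethanol (log2 fold change −3.10, SE 0.94, adjusted p = 0.0097, edgeR). Another annotated gene covers 41.1% of its exons, and the call was lost without replicate 2 (adjusted p = 0.109) or replicate 3 (adjusted p = 0.192). *wrt-3* and *wrt-5* were chosen after their values were seen. *wrt-5* had 5.78, 7.40, 6.39 and 7.71 CPM with auxin, against 10.99, 15.0, 10.2 and 16.1 CPM with ethanol. These libraries did not overlap, yet in the fit with W1 the log2 fold change of *wrt-5* was −0.56 (adjusted p = 0.167, edgeR), and without W1 it was −0.85 (adjusted p = 0.00538).

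**Figure D2:**
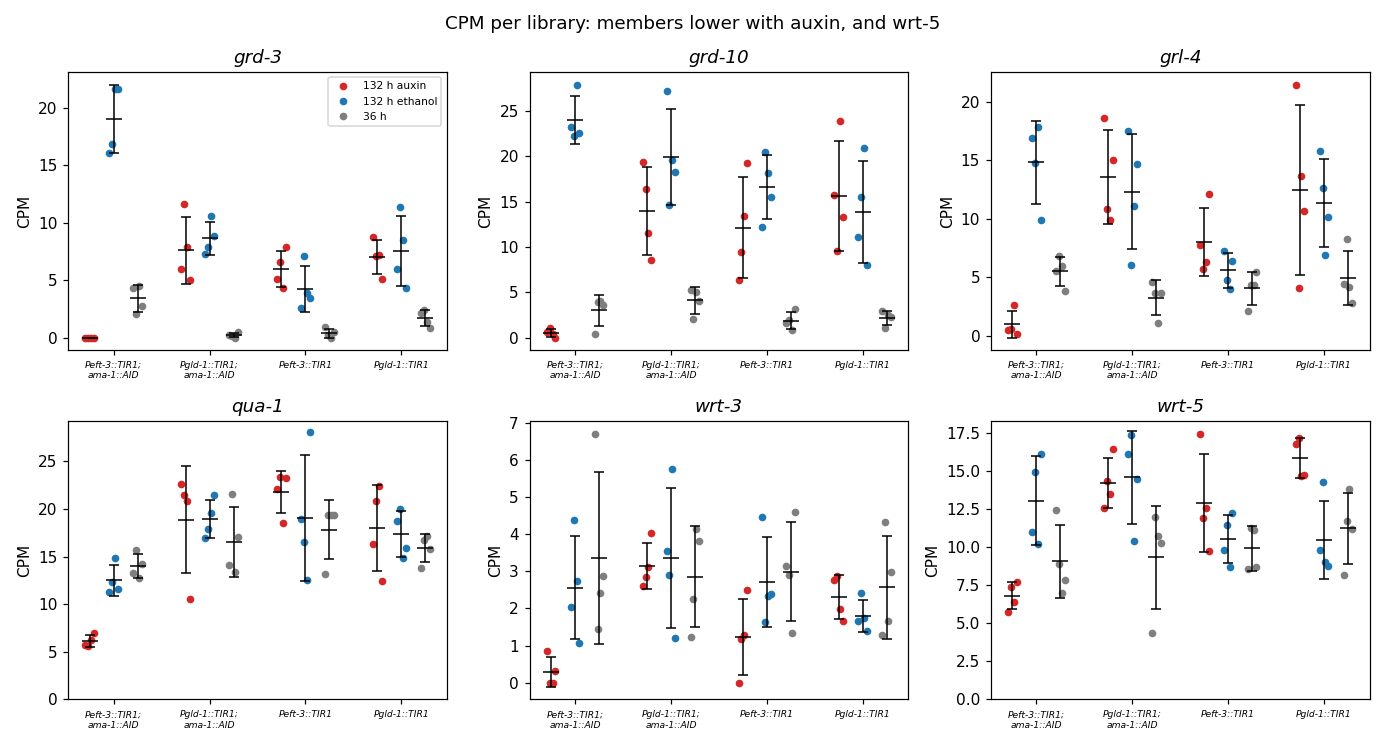
CPM in each library (points) of *grd-3*, *grd-10*, *grl-4*, *qua-1*, *wrt-3* and *wrt-5*, with the mean and SD (black), by strain and condition. In the soma degron strain, the auxin libraries (red) of *grd-3* are all at 0 and those of *grd-10* reach at most 1.00 CPM, while in the other 3 strains the auxin and ethanol libraries of these 2 genes overlap.

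A second set of members had more counts with auxin than with ethanol in the soma degron strain. *grl-23* (WBGene00001732, chromosome V 12575191 to 12576897, − strand) had 51, 47, 54 and 24 counts with auxin in the soma degron strain, against 0, 2, 0 and 1 with ethanol. Its ratio of summed CPM was 56.8 (95% exact counting interval 19.1 to 278), and per spike-in count it was 21.7 (7.30 to 106). In the 9 groups of the other 3 strains, it had at most 12 counts in a library. The fitted change was called (adjusted p = 0.001, edgeR), but 4 of the 5 libraries in which *grl-23* exceeded 10 counts were these auxin libraries. It was tested only through the group where it is high, so its call is no independent result. Without replicate 2, *grl-23* had more than 10 counts in too few libraries to be tested. E02A10.8 on the other strand overlaps 1.13% of its exons.

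*grl-2*, which is made in the excretory duct and pore cells, had 23, 25, 16 and 17 counts with auxin in the soma degron strain, against 0, 0, 0 and 1 with ethanol. It too was tested only through these auxin libraries, which were 4 of the 5 with more than 10 counts. The ratio of summed CPM was 78.4 (13.7 to 3136), and per spike-in count 29.9 (5.22 to 1197). Although the libraries did not overlap, *grl-2* was not called in the fit with W1 (log2 fold change 2.61, SE 3.02, adjusted p = 0.557, edgeR), and it was called without W1 (5.71, adjusted p = 0.0126). *wrt-6*, a member with a Hog domain, had 64, 55, 60 and 135 counts with auxin, against 1, 0, 14 and 15 with ethanol. It too was called without W1 (log2 fold change 3.27, adjusted p = 0.0392, edgeR) and missed the threshold with it (3.90, adjusted p = 0.084). Scaled to spike-ins, *wrt-6* was at 1.73 (adjusted p = 0.263). *grl-13* had 61, 42, 14 and 59 counts with auxin, against 1, 16, 0 and 11 with ethanol, and the groups overlapped (adjusted p = 0.16, edgeR). These 4 members were chosen after their values were seen.

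**Figure D3:**
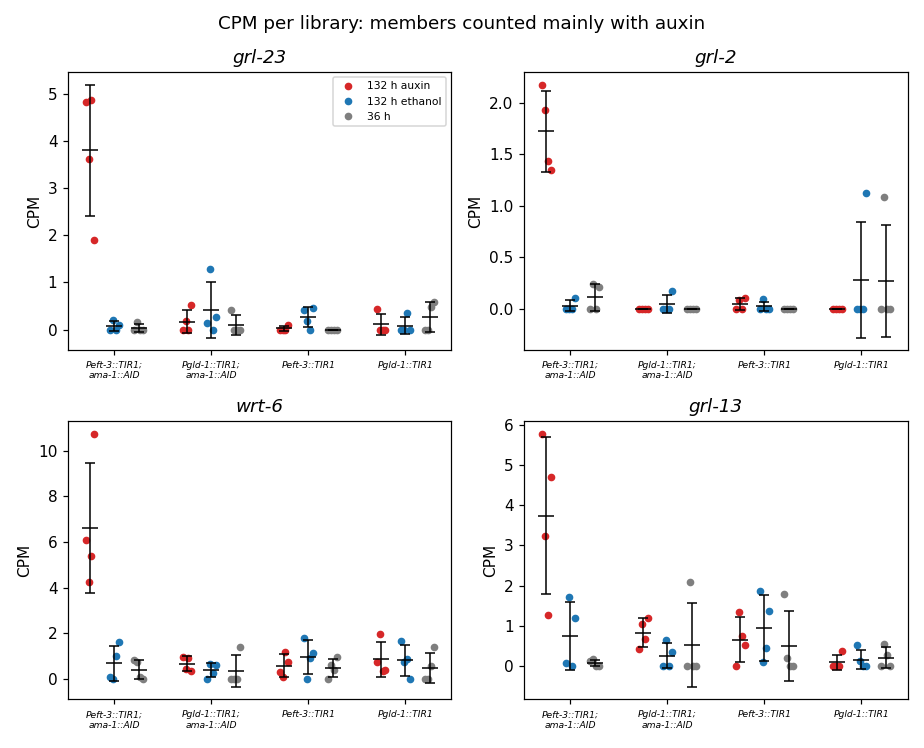
CPM in each library (points) of *grl-23*, *grl-2*, *wrt-6* and *grl-13*, with the mean and SD (black), by strain and condition. For the first 3, every auxin library of the soma degron strain lies above its ethanol libraries, with *grl-23* at 1.91 to 4.86 CPM, against 0 to 0.21 CPM.

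The CPM of the 4 auxin and 4 ethanol libraries of the soma degron strain did not overlap for 6 members that were lower and 5 that were higher. This was 16.7% of the tested members lower, against 17.2% of all tested genes, and 13.9% higher, against 14.8% of all tested genes. The 5 that were higher include *grl-2* and *grl-23*, which were tested only through these auxin libraries. Nothing is therefore read from the share higher. Scaled to spike-in counts, 11 members were lower with auxin, against 52.4% of all tested genes, and *grl-2*, *grl-21* and *grl-23* were higher. Since *grl-2* and *grl-23* were tested only through their auxin libraries, nothing is read from this count beside the 2.68% of all tested genes that were higher. The median of the tested members was then −0.60, against −1.25 for all tested genes.

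The auxin effect was next compared between strains with and without the degron. In the germline degron strain, *Peft-3::TIR1* and *Pgld-1::TIR1*, 0 members were called lower or higher with auxin (0% of all tested genes in each, edgeR), and DESeq2 called 0 members as well. At an unadjusted p under 0.05, 2, 1 and 4 members passed in these strains, in that order. Of the 15549 tested genes, 230, 720 and 502 did so, and DESeq2 called 5, 16 and 9. The difference in auxin effect between the soma degron strain and *Peft-3::TIR1* was called lower for 4 members, 11.1% of those tested, against 12.5% of all tested genes. These were *grd-3*, *grd-10*, *grl-4* and *qua-1*. It was called higher for 1, *grl-23*, with the same limit on its test (2.78% of members, against 8.31% of all tested genes). *grl-23* was not tested without replicate 2, and the count of members higher was then 0. For *wrt-3*, the difference missed the threshold (−1.94, SE 1.13, adjusted p = 0.237, edgeR). *wrt-3* had 0, 14, 14 and 24 counts with auxin in *Peft-3::TIR1*, against 55, 18, 26 and 21 with ethanol.

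**Figure D4:**
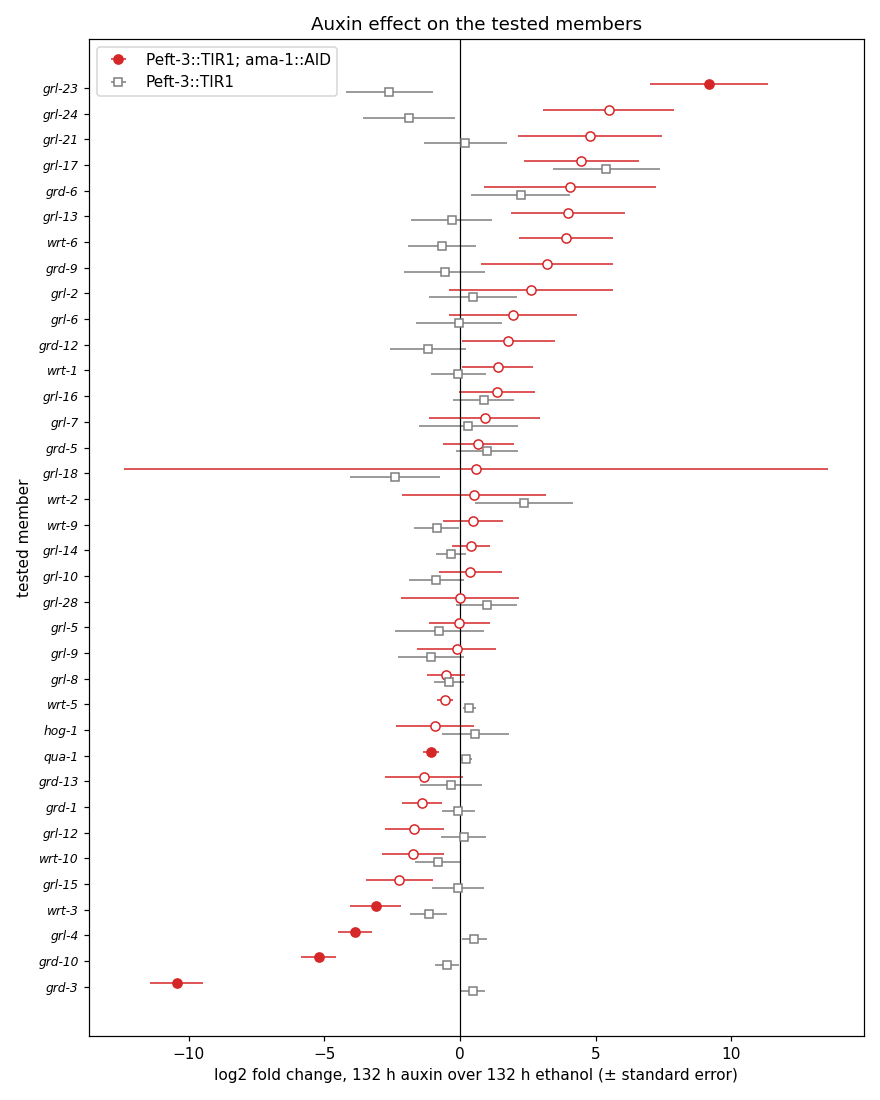
Log2 fold change of auxin over ethanol at 132 h (x axis, ± SE) for the 36 tested members, in the soma degron strain (red circles) and *Peft-3::TIR1* (gray squares). Filled symbols passed the threshold, 6 in the soma degron strain and 0 in the untagged strain; *grd-3*, *grd-10* and *grl-4* lie farthest to the left.

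Larvae at 132 h were also compared with larvae at 36 h. W1 differed with time as well, at −0.17 to −0.02 with ethanol and 0.01 to 0.21 at 36 h in the soma degron strain. Scaling to spike-ins moved the median log2 fold change of all genes to between 0.46 and 0.85. With ethanol, 5 members were higher and 1 lower than at 36 h in the soma degron strain, against 15.2% of all tested genes higher and 15.1% lower. In the germline degron strain, 6 were higher and 1 lower (17% and 17.1% of all tested genes). In *Peft-3::TIR1*, 6 were higher and 1 lower (20.5% and 23.9% of all tested genes). In *Pgld-1::TIR1*, 4 were higher and 3 lower (18.8% and 19.4% of all tested genes). In all, 11 members rose in at least 1 strain (*grd-3*, *grd-10*, *grd-13*, *grl-4*, *grl-8*, *grl-12*, *grl-14*, *grl-15*, *grl-18*, *wrt-9* and *wrt-10*) and 4 fell in at least 1 (*grl-5*, *grl-21*, *grl-28* and *wrt-5*). The shares of all tested genes called in at least 1 strain are not given here, so nothing is read from these counts. Scaled to spike-ins, 9 members were higher and 0 lower in the soma degron strain, against 31.8% and 3.38% of all tested genes. In *Peft-3::TIR1* they were 12 and 0 (35.4% and 6.07% of all tested genes), and in *Pgld-1::TIR1* 4 and 1 (19.4% and 5.66% of all tested genes). Without replicate 3 of every group, 2 members were higher in the soma degron strain and 3 in the germline degron strain, and without replicate 2, 2 were higher in *Peft-3::TIR1*. Without replicate 4, 0 members were lower in any strain. Shares of all tested genes without a replicate are not given here.

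*grd-3* and *grd-10* were the members that rose in all 4 strains. How many of all tested genes did so is not given here, so nothing is read from their number. *grd-3* had 53, 73, 116 and 103 counts at 132 h with ethanol in the germline degron strain, against 2, 1, 0 and 5 at 36 h. In *Peft-3::TIR1* it had 32, 78, 43 and 30 counts at 132 h with ethanol, against 16, 2, 0 and 5 at 36 h. In *Pgld-1::TIR1* it had 47, 94, 49 and 50 counts at 132 h with ethanol, against 18, 22, 20 and 10 at 36 h. No library at 36 h reached the lowest ethanol library of its strain. Its log2 fold changes were 1.99, 4.83, 2.79 and 1.58 in the soma degron strain, the germline degron strain, *Peft-3::TIR1* and *Pgld-1::TIR1* (SE 0.51 to 0.66, adjusted p 7.22e-08 to 0.0108, edgeR). The call in *Pgld-1::TIR1* was lost without replicate 3 (1.32, adjusted p = 0.0516).

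*grd-10* averaged 23.98 ± 2.65 CPM at 132 h with ethanol and 3.00 ± 1.75 CPM at 36 h in the soma degron strain (SD, n = 4 each). In *Peft-3::TIR1* it averaged 16.6 ± 3.55 CPM at 132 h with ethanol and 1.87 ± 0.96 CPM at 36 h. Its log2 fold change lay between 1.73 and 2.57 in the 4 strains (SE 0.51 to 0.54, adjusted p 0.000104 to 0.00626, edgeR). Among members named after their values were seen, *grl-12* rose in 3 strains, *wrt-10* rose in 2 and *grl-28* fell in 3. *grl-12* had 31, 21, 11 and 39 counts at 132 h with ethanol in *Pgld-1::TIR1*, against 0, 5, 4 and 1 at 36 h. *wrt-10* had 29, 30, 24 and 29 counts at 132 h with ethanol there, against 0, 2, 5 and 0 at 36 h, so neither gene overlapped between the groups. Without 1 of the replicates, *grl-12* was called in 1 or 2 strains. *grl-28* had 0, 7, 7 and 2 counts at 132 h with ethanol in *Peft-3::TIR1*, against 64, 48, 18 and 25 at 36 h. Its fall passed in 0 strains when libraries were scaled to spike-ins (log2 fold change −2.77, −2.52 and −2.40 in the 3 strains, adjusted p 0.0667 to 0.141), and in 0 to 2 strains without 1 of the replicates. It was not called in the germline degron strain (−1.54, SE 1.14, adjusted p = 0.321, edgeR), and a difference between strains was not tested.

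**Figure D5:**
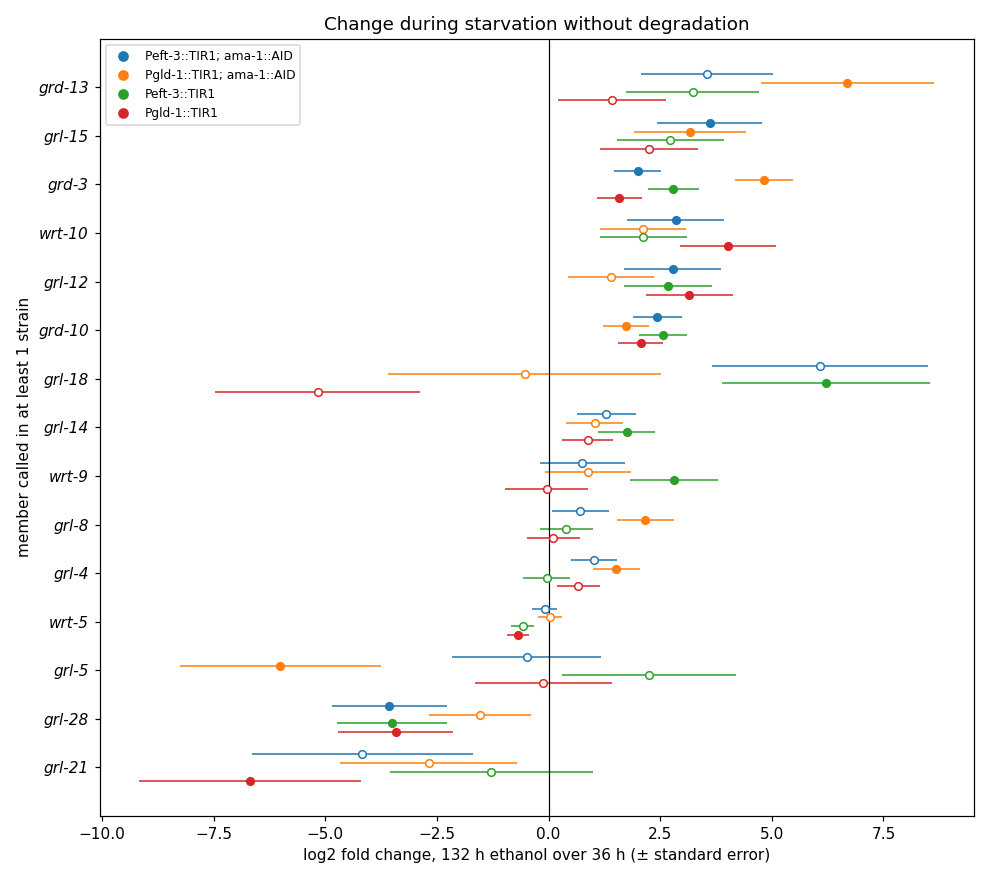
Log2 fold change of 132 h with ethanol over 36 h (x axis, ± SE) in the 4 strains (colors) for the members called in at least 1 strain. Filled circles passed the threshold; *grd-3* and *grd-10* are filled and to the right of 0 in all 4 strains.

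With auxin in the soma degron strain, 7 members were lower at 132 h than at 36 h and 6 were higher, against 24.2% of all tested genes lower and 23.8% higher. Those lower were *grd-3*, *wrt-3*, *grl-28*, *grl-4*, *grd-10*, *qua-1* and *wrt-5*, and those higher were *grl-23*, *grl-18*, *grd-6*, *grl-13*, *wrt-6* and *grl-14*. *grl-23* was tested only through the auxin libraries of this strain, so its call is no independent result. *grl-18* exceeded 10 counts in only 4 libraries, the fewest that were tested. Nothing is therefore read from the counts of members higher in this comparison. *grd-3* had 0 counts in the auxin libraries, against 78, 25, 58 and 26 at 36 h. *grl-14* had 60, 81, 87 and 98 counts with auxin, against 2, 37, 27 and 9 at 36 h (log2 fold change 1.72, SE 0.59, adjusted p = 0.014, edgeR). *grl-14* also had 52, 46, 35 and 61 counts with ethanol, and that difference from 36 h missed the threshold (1.30, SE 0.66, adjusted p = 0.141). Scaled to spike-ins, 7 members were lower and 4, *grl-23* among them, were higher, against 26.4% and 9.15% of all tested genes. The calls of *grl-14* (1.43, adjusted p = 0.0731) and *wrt-6* (3.03, adjusted p = 0.076) were then lost. Without replicate 2 or without replicate 3, 3 members were higher. This comparison shares its auxin libraries with the one against ethanol.

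Without auxin, the soma degron strain differed from *Peft-3::TIR1* in *grd-3*. This comparison was added after values were seen. From the slower growth of the soma degron strain, the paper proposes some background degradation of AMA-1 without auxin. Plates of this strain were started with gravid adults, and those of *Peft-3::TIR1* with L4 larvae. The part of either in the values below was not tested. At 36 h, *grd-3* had 4.32, 2.01, 4.52 and 2.76 CPM in the soma degron strain, against 0.90, 0.20, 0 and 0.48 CPM in *Peft-3::TIR1*. At 132 h with ethanol, it had 16.03, 16.9, 21.6 and 21.6 CPM, against 2.60, 7.14, 3.87 and 3.43 CPM in *Peft-3::TIR1*. Of the tested members, *grd-3* and *grl-4* were higher in the tagged strain at 132 h with ethanol and 0 were lower (6.63% and 5.90% of all tested genes). At 36 h, *grd-3* was higher and 0 members were lower (0.167% and 0.0579% of all tested genes). DESeq2 called 0 members lower at either time, and at an unadjusted p under 0.05 (edgeR) 5 members differed in either direction at 132 h and 4 at 36 h. Of the 15549 tested genes, 3825 differed in this way at 132 h and 1222 at 36 h. The log2 difference of *grd-3* was 2.17 at 132 h with ethanol (SE 0.47, adjusted p = 0.00141, edgeR) and 2.97 at 36 h (SE 0.55, adjusted p = 0.00391). Without replicate 1, 2 or 3, 1 member was higher at 132 h with ethanol, and the shares of all tested genes there are not given here. Scaled to spike-ins, 0 members were called higher at 132 h with ethanol, against 0.154% of all tested genes, so few genes of any kind were called there. At 36 h the call was lost without replicate 2 or without replicate 3.

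Genes related to other parts of the Hedgehog pathway were described from a list of Patched, Patched-related, Dispatched-like, NPC1-like, Gli-like and acyltransferase genes. Of 35 listed, 33 were tested. With auxin in the soma degron strain, 7 were lower and 7 higher than with ethanol, against 16.1% and 13.3% of all tested genes, and their median log2 fold change was −0.30, against 0.11 for all tested genes. *ptc-3*, a Patched homolog needed for osmotic balance, fell (−1.66, SE 0.25), as did the Patched-related *ptr-23* (−2.99, SE 0.30), *ptr-3* (−2.56, SE 0.53) and *ptr-20* (−1.98, SE 0.60). The Patched-related *ptr-4* (2.07, SE 0.61) and *ptr-22* (1.87, SE 0.53), the NPC1 homolog *ncr-2* (2.39, SE 0.46) and *hhat-1*, related to the acyltransferase that modifies Hedgehog (5.52, SE 2.12), rose in this fit, but with spike-in scaling 0 of these 4 were called and *ptr-4* was at −0.16. Adjusted p were 4.09e-11 to 0.0098 for the 4 named as lower and 5.43e-05 to 0.0443 for the 4 named as higher (edgeR's quasi-likelihood test). Scaled to spike-ins, 17 of the 33 were lower and 0 higher, against 52.4% and 2.68% of all tested genes, a share lower near that of all genes. Their median was then −1.71, against −1.25 for all tested genes, and the 4 named as lower were among the 17.

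Of 24 molting and precuticle genes, 22 were tested, and 4 were lower and 2 higher with auxin in the soma degron strain, against 16.1% and 13.3% of all tested genes. The median log2 fold change was 0.01, against 0.11 for all tested genes. Scaled to spike-ins, 10 were lower and 0 higher, against 52.4% and 2.68% of all tested genes. Neither share lower stood far from that of all genes. *blmp-1*, a transcription factor of the molting cycle, was lower (−3.37, SE 0.40, adjusted p = 4.85e-09, edgeR). *let-653*, which encodes a precuticle protein, was lower too (−4.27, SE 0.63, adjusted p = 5.85e-07). Both were chosen after their values were seen.

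Markers of epidermis, glia and other tissues were summed in the same libraries of the soma degron strain. The 13 epidermal markers summed to 637 to 955 CPM with auxin and 850 to 985 CPM with ethanol, with overlap, and 0 were without counts. Of these 13, 1 was called higher and 3 lower (edgeR), and 0 and 8 when scaled to spike-ins. On the spike-in scale, 2.68% of all tested genes were higher and 52.4% lower. The 8 glial markers summed to 24.7 to 60.5 CPM with auxin and 122 to 144 CPM with ethanol, without overlap, and *delm-1* was at 0 with ethanol. Only 6 of these 8 were tested, with 0 called higher and 2 lower (edgeR), and 0 and 3 when scaled to spike-ins. The 8 markers of the excretory system summed to 86.4 to 270 CPM with auxin and 90.7 to 115 CPM with ethanol. Of these 8, 1 was called higher and 1 lower (edgeR), and 0 and 4 when scaled to spike-ins. The 6 body wall muscle markers summed to 1363 to 2288 CPM with auxin and 3410 to 5041 CPM with ethanol, without overlap. Of these 6, 0 were called higher and 5 lower (edgeR), and 0 and 6 when scaled to spike-ins. The 9 intestinal markers summed to 2116 to 3615 CPM with auxin and 1086 to 1464 CPM with ethanol, also without overlap. Of these 9, though, 1 was called higher and 2 lower (edgeR), and 1 and 5 when scaled to spike-ins. The 8 neuronal markers summed to 1047 to 1412 CPM with auxin and 1072 to 1346 CPM with ethanol. Of these 8, 0 were called higher and 2 lower (edgeR), and 0 and 8 when scaled to spike-ins. The 7 germline markers summed to 264 to 766 CPM with auxin and 144 to 224 CPM with ethanol, without overlap. Of these 7, 4 were called higher and 0 lower (edgeR), but 0 higher and 1 lower when scaled to spike-ins. The part of these marker differences in the member values was not tested.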

How the data were processed

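Poly(A) RNA of whole L1 larvae was sequenced in 48 libraries of 12 groups. The deposited counts are whole read pairs per gene, not normalized. Bowtie 1.2.2, HTSeq 0.11.2 and edgeR 3.24.4 are named in the submitters' processing notes. The authors mapped reads to the WS273 genome with spike-in sequences, kept pairs that matched 2 places and assigned each to 1 of them. The strand setting of the counting was not given in the sources used here. The kit does not mark strand, so overlapping genes on opposite strands cannot be told apart. Each file held 46911 gene identifiers, of which 46857 were in the WBcel235 annotation, and 92 spike-ins. Summary lines of the counting that name no gene were left out of library sizes and tests, and ambiguous pairs among them made up 3.21% to 8.45% per library. Spike-ins had been added by total RNA, so scaling to them gives a level per unit of total RNA and not per larva.

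Genes had to exceed 10 counts in 4 or more libraries, and 15549 of 19932 protein-coding genes were tested with edgeR 4.0.16 in R 4.3.3 (limma 3.58.1), in 1 fit of all libraries with the 12 groups and W1, a factor of unwanted variation estimated by RUVg's formula (k = 1) on 62 spike-ins passing that filter. Upper-quartile normalization, filter and covariate followed the authors' methods, and the quasi-likelihood test replaced their likelihood ratio test. P-values were adjusted by Benjamini-Hochberg over all tested genes, at 0.05. SE was the log2 fold change divided by the square root of F. The fit was tested on simulated data, but the outcome is not given here, so nothing is read from that test. Counts of replicate pairs differed by more than sampling noise, with a chi-square of 7.90 to 91.7 per degree of freedom over 72 pairs. Alternatives were TMM, no W1, spike-in library sizes, the likelihood ratio test, DESeq2 1.42.0, no filter, more than 50 counts, a replicate block, leaving out each replicate number in all groups, fitting the compared libraries alone with and without W1, leaving out members with overlapping exons, and a threshold of 0.01. The comparison of tagged with untagged strains was added later.

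Members and lists were chosen with earlier results of these data known. Values per library were given for members past the threshold with auxin in the soma degron strain that averaged at least 50 counts in 1 group (at most 10 each way by log2 fold change), for *hog-1* and *qua-1*, and for members called the same way in all 4 strains between 132 h with ethanol and 36 h (at most 5 each way). Of the list of Patched-related and other pathway genes, at most 8 called genes were named, by size of change. Other members named were chosen after their values were seen.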

Additional observations from a re-analysis of the deposited data

Results flagged for a closer look

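In 93 groups of 4 libraries, the lowest or highest library was set against the other 3 by the ratio of Dixon on log2(CPM + 1), for members named with auxin and for the members' summed level, and 8 groups passed its critical value for 4 samples, where chance gives about 1 in 20. *grd-10* had 0.388 CPM in replicate 1 of the soma degron strain at 36 h, against 3.61 to 4.05 CPM in the other 3. *qua-1* had 10.5 CPM in replicate 4 of the germline degron strain with auxin, against 20.8 to 22.7 CPM, and 13.2 CPM in replicate 1 of *Peft-3::TIR1* at 36 h, against 19.4 CPM in each of the others. *hog-1* had 0.183 CPM in replicate 2 of *Peft-3::TIR1* with ethanol, against 0.630 to 0.685 CPM. In replicate 4 of *Pgld-1::TIR1* with ethanol, the library with the high spike-in share, *hog-1* had 0.0863 CPM, against 0.638 to 0.726 CPM. The remaining 3 groups in the soma degron strain had 1 library with counts and 3 at 0, where the ratio is at its maximum whatever the count, so they carry no weight. These 3 groups were *grl-23* at 36 h (0.161 CPM in replicate 2), *grl-2* with ethanol (0.108 CPM in replicate 4) and *grd-6* with ethanol (0.855 CPM in replicate 2). The other 5 of 93 are near the rate that chance gives.

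The auxin effect differed between the soma degron strain and *Peft-3::TIR1*, by the interaction test of edgeR, for 5 members. Of all tested genes, 12.5% were called lower and 8.31% higher in this test. The log2 difference, with the tagged strain first, was −10.93 for *grd-3* (adjusted p = 3.67e-10), −4.73 for *grd-10* (adjusted p = 1.05e-05), −4.40 for *grl-4* (adjusted p = 2.59e-05) and −1.29 for *qua-1* (adjusted p = 0.00663). It was 11.80 for *grl-23* (adjusted p = 0.000932). *grl-23* was tested only through the auxin libraries of the soma degron strain, so its call is no independent result. The values for *grd-3* and *grl-23* rest on groups at or near 0 and are no estimates of size.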

How the results depend on the processing

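Counts below are of members called, beside the value in the report. Shares of all tested genes under each alternative are not set beside them, so the counts show only how the calls moved. With auxin in the soma degron strain, 5 were lower. This was 11 with spike-in scaling and 2 with only the compared libraries and W1 (3 to 5 leaving out a replicate). Of members higher there (1), the count was 4 without W1, 3 with spike-in scaling, 3 with DESeq2, 2 with the replicate block, 3 with only the compared libraries and no W1, and 0 without members with overlapping exons (0 to 1 leaving out a replicate). The auxin effect was lower than in *Peft-3::TIR1* for 4, which became 2 with only the compared libraries and W1 (3 to 5). It was higher for 1, which became 2 without W1, with the likelihood ratio test, with DESeq2, with no filter and with only the compared libraries and no W1, and 0 with more than 50 counts or without overlapping exons (0 to 1). Against 36 h, members lower with auxin (7) became 3 with only the compared libraries and W1 (5 to 6), and members higher (6) became 2 with more than 50 counts, 3 with only the compared libraries and W1, and 2 at 0.01 (3 to 5). With ethanol, members higher in all 4 strains (2) became 4 with DESeq2 and 1 with only the compared libraries and W1 or at 0.01 (1 to 2). In the soma degron strain, members higher (5) became 9 with spike-in scaling, 3 with no filter, more than 50 counts or only the compared libraries and W1, and 2 at 0.01 (2 to 4), and members lower (1) became 0 with spike-in scaling, more than 50 counts, only the compared libraries and W1, or 0.01 (0 to 1). In the germline degron strain, members higher (6) became 10 with spike-in scaling and 3 with more than 50 counts or only the compared libraries and W1 (3 to 6), and members lower (1) became 0 with more than 50 counts, only the compared libraries with or without W1, or 0.01 (0 to 1). In *Peft-3::TIR1*, members higher (6) became 12 with spike-in scaling, 10 with the likelihood ratio test, 3 with more than 50 counts, 1 with only the compared libraries and W1, and 2 at 0.01 (2 to 6), and members lower (1) became 0 with spike-in scaling, only the compared libraries and W1, or 0.01 (0 to 1). In *Pgld-1::TIR1*, members higher (4) stayed within 1.5 times (3 to 6), and members lower (3) became 1 with spike-in scaling, more than 50 counts or only the compared libraries with or without W1, and 0 at 0.01 (0 to 2). Tagged against untagged with ethanol, members higher (2) became 0 with spike-in scaling and 1 at 0.01 (1 to 2). At 36 h, members higher (1) became 2 with the likelihood ratio test and 0 with only the compared libraries with or without W1 (0 to 1). Counts of 0, for auxin in the other 3 strains, for members lower in all 4 strains and for members lower in the tagged strain, were 0 under every alternative run. The cause of these shifts was not tested. By the methods, the embryos of all strains in a biological replicate were prepared together, but no label ties the replicate numbers to such a batch. The numbers were not taken to pair the libraries, since not every same-numbered pair correlated above 0.1 in its deviations. The correlation was 0.0645 on average over 16 pairs with auxin and ethanol (5 above 0.1) and 0.0385 over 16 pairs with ethanol and 36 h (2 above 0.1). The replicate block moved 1 of 21 counts by over 1.5 times. Most members have under 50 counts per library, so small changes were not detectable at this depth.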
